A study of Mus musculus with 6 samples.

Results

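Interferon regulatory factors (IRFs) are a family of transcription factors that share a DNA-binding domain and are numbered by gene. The 8 genes described here, Irf1, Irf2, Irf3, Irf4, Irf5, Irf7, Irf8 and Irf9, were taken by name from gene tables of 47643 genes. The cells were regulatory T cells, sorted from mouse bone marrow as CD4+ cells with a GFP reporter of FOXP3, the lineage factor of this suppressive kind of T cell. There were 3 libraries from mice injected with Vk*MYC, labelled as multiple myeloma (a cancer of plasma cells), and 3 from control mice. All 6 libraries share the reporter, and the labels give neither age, sex nor strain, nor the time after injection or what the controls received. Replicates are numbered 3, 4 and 5 in the myeloma group and 1, 3 and 5 in the control group, and values are given in this order throughout. The title of the series speaks of blocking an interferon receptor subunit and of regulatory T cell expansion in myeloma, so the comparison asks how the transcripts of this family differ between the 2 kinds of marrow.

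IRFs stand at both ends of interferon signalling. IRF3 and IRF7 are phosphorylated downstream of sensors of viral and other nucleic acids and switch on interferon genes, and IRF5 acts beside them downstream of Toll-like receptors. Secreted type I interferon then signals through its receptor to a complex that contains IRF9, which binds interferon-stimulated response elements (ISRE) and raises further genes, Irf7 among them. IRF1 is induced by interferon gamma through gamma-activated sites (GAS), and IRF2 competes with it for the same elements. IRF4 and IRF8 are factors of blood cells: IRF4 is induced by the antigen receptor and sustains effector regulatory T cells and plasma cells, and IRF8 is best known in dendritic cells, macrophages and B cells.

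Of the 8 members, 3 rose in regulatory T cells of the myeloma group and none fell. Irf7 rose 5.93-fold, Irf9 1.76-fold and Irf1 1.36-fold. The other 5 did not pass the test (edgeR's quasi-likelihood test, Benjamini-Hochberg adjusted p under 0.05 over all 13235 genes tested). By the same rule 11.0% of all genes tested were called, 6.33% as higher and 4.69% as lower. All 8 members had passed the filter on low counts, with between 350 expected counts (Irf8 in control replicate 3) and 6238 (Irf7 in myeloma replicate 5) in a library. The members' median log2 fold change was 0.42, against 0.0185 over all genes tested. In bulk samples, fewer cells of a type and less RNA per cell cannot be told apart. Each p-value rests on the spread between libraries alone, since no label ties a library to a separate culture, day or batch.

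The starts of the members' genes show which of them carry the letters of these elements close to the start. RefSeq promoter windows (mouse build GRCm38.p6, 250 bases before to 50 after the start) were found for all 8 members, 11 windows in all. They were searched on both strands for the ISRE as GAAA, any 2 bases and GAAA again, and for the GAS element as TTCNNNGAA. The first was in 3.44% and the second in 8.3% of all 32851 windows of the table. Among the members 1 window held the ISRE letters, that of Irf2, and 3 held the GAS letters, those of Irf1, Irf8 and Irf2. A match is a description of letters and not a binding site, and a window without a match says only that these letters are not in it. The 4 stretches below, read 5′ to 3′ on the strand of each gene, show the 3 members with matches and Irf7, the member with the largest difference, which had none. Capitals mark the matches.
Irf1: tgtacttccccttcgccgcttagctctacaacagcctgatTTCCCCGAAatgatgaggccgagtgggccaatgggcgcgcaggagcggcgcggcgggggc
Irf8: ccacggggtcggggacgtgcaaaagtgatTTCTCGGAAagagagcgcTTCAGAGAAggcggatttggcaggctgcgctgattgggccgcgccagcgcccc
Irf2: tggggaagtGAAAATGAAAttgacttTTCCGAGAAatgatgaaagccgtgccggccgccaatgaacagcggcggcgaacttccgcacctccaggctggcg
Irf7: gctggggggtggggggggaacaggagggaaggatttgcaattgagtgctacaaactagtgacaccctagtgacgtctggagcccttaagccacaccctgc

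The Irf1 stretch lies at chr11:53769884-53769983 on the plus strand, and its GAS letters begin 90 bases before the start. The Irf8 stretch lies at chr8:120736158-120736257 on the plus strand, with GAS letters beginning 171 and 153 bases before the start. The Irf2 stretch lies at chr8:46739495-46739594 on the plus strand, with the ISRE letters at 241 and the GAS letters at 224 bases before the start, and it overlaps an annotated exon of the noncoding gene Gm16675. The Irf7 stretch lies at chr7:141266485-141266584 on the minus strand. The stretches of Irf1, Irf8 and Irf7 overlap no annotated exon. Of the 3 members that rose, Irf1 alone had a match, and Irf2, with both, did not pass the test. Neither motif was in the windows of Irf3, Irf4, Irf5 or Irf9.

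Irf7, the inducible amplifier of type I interferon genes, differed most. Levels are first given as CPM, expected counts scaled to library size with TMM factors, which compare 1 gene between libraries. Irf7 (ENSMUSG00000025498.14, GRCm38 chr7:141262706-141266481, minus strand) stood at 421.5, 339.7 and 557.0 CPM in myeloma replicates 3, 4 and 5, and at 70.54, 57.29 and 94.37 CPM in the control libraries. The lowest myeloma library was above the highest control library, and within each group replicate 5 was highest. The means were 439.4 ± 110 CPM (SD, n = 3) and 74.07 ± 18.8 CPM (SD, n = 3). Its log2 fold change was 2.57 (SE 0.22, 95% confidence interval 2.07 to 3.06, adjusted p = 0.000248 in edgeR's quasi-likelihood test). Irf7 was called in all 17 other settings tried, with log2 fold changes from 2.35 to 2.77.

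Irf9, the DNA-binding subunit of the complex that answers type I interferon, rose less and varied little within the myeloma group. Irf9 (ENSMUSG00000002325.14, chr14:55603571-55610030, plus strand) stood at 288.0, 286.8 and 266.0 CPM in the myeloma libraries and at 157.6, 138.3 and 180.3 CPM in the control libraries. The groups did not overlap, and the myeloma library with most Irf7, replicate 5, had the least Irf9 of its group. The means were 280.3 ± 12.4 CPM (SD, n = 3) and 158.7 ± 21.0 CPM (SD, n = 3). The log2 fold change was 0.82 (SE 0.11, 95% confidence interval 0.58 to 1.06, adjusted p = 0.00273 in edgeR's quasi-likelihood test), and it ran from 0.73 to 0.91 over the 17 other settings, in each of which Irf9 was called.

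Irf1, the interferon gamma-induced activator of antigen presentation genes, was the third member called. Irf1 (ENSMUSG00000018899.16, chr11:53770014-53778374, plus strand) stood at 374.3, 355.2 and 367.8 CPM in the myeloma libraries and at 276.1, 305.7 and 223.4 CPM in the control libraries. The groups did not overlap, with a gap narrower than the range of the controls. The means were 365.8 ± 9.73 CPM (SD, n = 3) and 268.4 ± 41.7 CPM (SD, n = 3), and the log2 fold change was 0.45 (SE 0.11, 95% confidence interval 0.19 to 0.71, adjusted p = 0.0397 in edgeR's quasi-likelihood test). Of all genes tested, 17.3% had myeloma CPM values above all control values, and Irf7, Irf9 and Irf1 were the 3 members that did. No member lay below all control values, as 16.0% of all genes did.

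The Irf1 call lay close to the threshold. It was held in 9 of the 17 other settings, with log2 fold changes from 0.30 to 0.55. These 9 include the fit without a filter on low counts, in which the SE hardly followed the spread of each gene. Leaving out 1 library ended it in 5 of 6 cases, with edgeR's adjusted p at 0.113, 0.0992 and 0.0633 when myeloma replicate 3, 4 or 5 was left out and at 0.075 and 0.0924 when control replicate 1 or 5 was. The call was held without control replicate 3. Library sizes with no TMM factors gave an adjusted p of 0.0562. RSEM's transcript length for Irf1, a mean over isoforms weighted by their estimated abundance, was 2030, 2047 and 1912 bases in the myeloma libraries and 1854, 1772 and 1884 bases in the controls. The myeloma values were longer without overlap, as in 7.81% of the 9186 genes whose weighted length varied. With an offset for effective length, the Irf1 log2 fold change was 0.30 and the adjusted p 0.21. The part of isoform choice in the Irf1 difference was not tested.

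Irf2, the counterpart of IRF1 at the same elements, stood at 149.9, 136.7 and 156.0 CPM in the myeloma libraries and at 146.9, 154.5 and 141.7 CPM in the control libraries (ENSMUSG00000031627.8, chr8:46739732-46847458, plus strand). The groups overlapped throughout. The means were 147.5 ± 9.89 CPM and 147.7 ± 6.45 CPM (SD, n = 3 each). The 95% confidence interval of its log2 fold change was -0.19 to 0.19 (adjusted p = 0.993 in edgeR's quasi-likelihood test).

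Irf3, the constitutively expressed partner of IRF7 in the first wave of interferon induction, stood at 147.0, 133.6 and 125.1 CPM in the myeloma libraries and at 133.0, 135.0 and 136.2 CPM in the control libraries (ENSMUSG00000003184.15, chr7:44997648-45002848, plus strand). The control values lay inside the range of the myeloma values. The log2 fold change was 0.01 (SE 0.08, 95% confidence interval -0.19 to 0.20, adjusted p = 0.976 in edgeR's quasi-likelihood test), and its sign changed with the scaling. For both Irf2 and Irf3 the interval leaves out differences as large as the 1.36-fold estimate for Irf1.

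**Figure D1:**
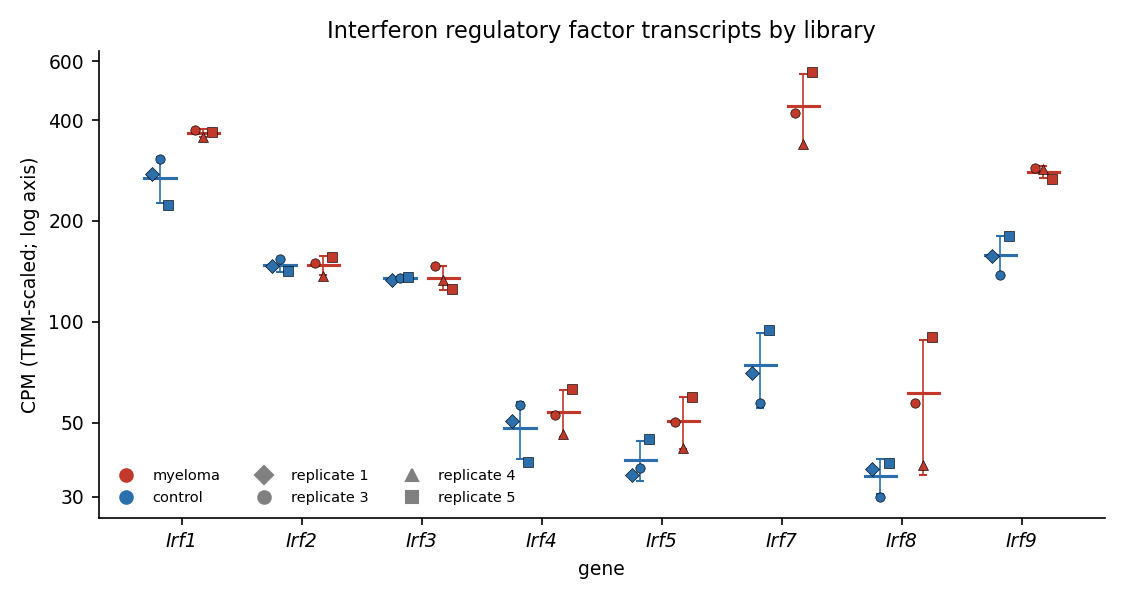
TMM-scaled CPM (log axis) of the 8 members in each of the 6 libraries, with symbols for replicate numbers, horizontal bars for group means and whiskers for 1 SD (n = 3). Irf7 stood at 339.7 to 557.0 CPM in the myeloma libraries and 57.29 to 94.37 CPM in the controls. The groups were also apart for Irf1 and Irf9 and overlapped for the other 5 members.

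Irf8 had a point estimate as large as that of Irf9 and did not pass the test. Irf8 (ENSMUSG00000041515.9, chr8:120736358-120756694, plus strand) stood at 57.14, 37.31 and 89.84 CPM in the myeloma libraries and at 36.28, 30.06 and 37.82 CPM in the control libraries. Myeloma replicate 4 lay within the control range, and myeloma replicate 5 was the highest. The means were 61.43 ± 26.5 CPM and 34.72 ± 4.11 CPM (SD, n = 3 each), and the log2 fold change was 0.82 (SE 0.27, 95% confidence interval 0.22 to 1.42, adjusted p = 0.0803 in edgeR's quasi-likelihood test). The estimate depended on single libraries. Without myeloma replicate 5 it was 0.44, and without myeloma replicate 4 it was 1.08 with an adjusted p of 0.0325. DESeq2 called Irf8, with a log2 fold change of 0.81 and an adjusted p of 0.00812.

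Irf4, the factor tied to the effector state of regulatory T cells, stood at 52.57, 46.15 and 62.96 CPM in the myeloma libraries and at 50.56, 56.35 and 38.11 CPM in the control libraries (ENSMUSG00000021356.9, chr13:30749226-30766976, plus strand). The groups overlapped, and myeloma replicate 5 was again the highest. The log2 fold change was 0.16 (SE 0.16, 95% confidence interval -0.21 to 0.52, adjusted p = 0.568 in edgeR's quasi-likelihood test).

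Irf5, which acts downstream of Toll-like receptors mainly in myeloid and B cells, stood at 50.28, 41.98 and 59.65 CPM in the myeloma libraries and at 34.88, 36.51 and 44.65 CPM in the control libraries (ENSMUSG00000029771.12, chr6:29526625-29541871, plus strand). The groups overlapped by 1 library on each side. The log2 fold change was 0.39 (SE 0.15, 95% confidence interval 0.05 to 0.72, unadjusted p = 0.0275 and adjusted p = 0.125 in edgeR's quasi-likelihood test). Its weighted transcript length was 2133, 2026 and 1874 bases in the myeloma libraries and 2189, 2178 and 2163 bases in the controls, shorter without overlap, as in 5.73% of the genes whose length varied.

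**Figure D2:**
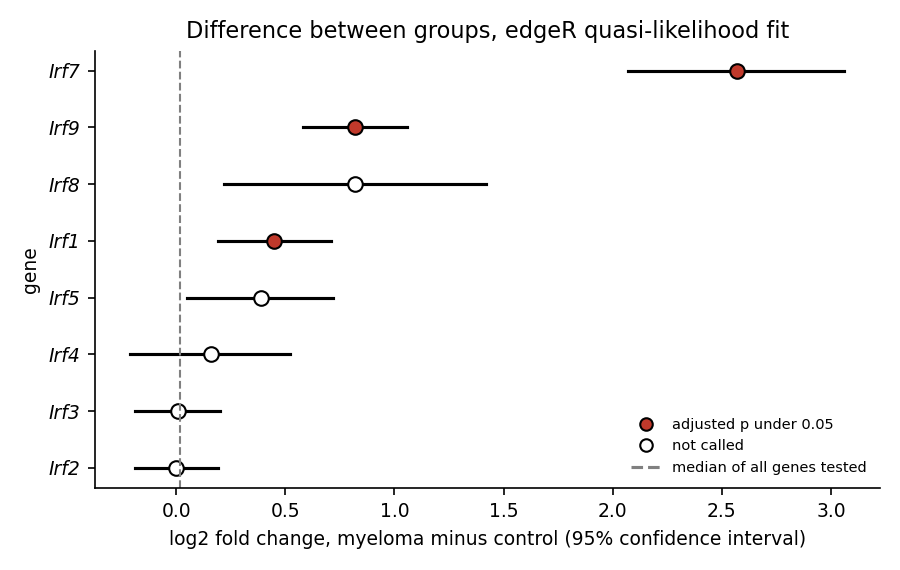
Log2 fold change, myeloma minus control, of each member with its 95% confidence interval in edgeR's quasi-likelihood fit (filled, adjusted p under 0.05). The dashed line is the median of all genes tested, 0.0185. The interval of Irf7, 2.07 to 3.06, lay above those of the other 7 members, and Irf8 had the widest interval, 0.22 to 1.42.

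Levels of different members are compared in TPM, which scale each gene by its length. In the controls Irf1 and Irf3 led the family, at 251.0 ± 34.5 and 220.4 ± 28.4 TPM (SD, n = 3), and their order changed between libraries, so these neighbours did not differ beyond their spread. Irf9 at 114.1 ± 23.3 TPM and Irf2 at 104.9 ± 7.85 TPM came next and likewise exchanged places. Irf7 was the fifth in all 3 control libraries, at 80.29 ± 22.4 TPM. Irf5 at 30.11 ± 5.47, Irf8 at 20.76 ± 3.48 and Irf4 at 16.32 ± 2.42 TPM were lowest, and Irf8 and Irf4 exchanged places. In the myeloma libraries Irf7 was first in all 3, at 383.7 ± 76.6 TPM, followed by Irf1 at 263.1 ± 13.2 TPM in each. Irf3 at 188.7 ± 37.3 TPM and Irf9 at 177.2 ± 16.4 TPM exchanged places between libraries, and Irf2 at 87.14 ± 4.22 TPM was the fifth in all 3. Irf5 at 36.18 ± 6.73 TPM and Irf8 at 30.95 ± 12.4 TPM exchanged places, and Irf4 at 15.33 ± 1.82 TPM was last in each.

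The summed TPM of the 8 members was 1266, 1068 and 1214 in the myeloma libraries and 873.0, 779.8 and 860.9 in the controls, with no overlap. Without Irf7 the sums were 863.8, 767.9 and 764.1 against 798.5, 718.4 and 755.9, and the groups overlapped. Irf7 made up 31.7%, 28.1% and 37.0% of the family in the myeloma libraries and 8.54%, 7.87% and 12.2% in the controls. The share of Irf3 was 16.1% ± 3.47 against 26.2% ± 1.93, and that of Irf1 was 22.3% ± 1.05 against 30.1% ± 5.54 (SD, n = 3 each). Shares add to a fixed total, so a larger Irf7 share lowers the others.

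**Figure D3:**
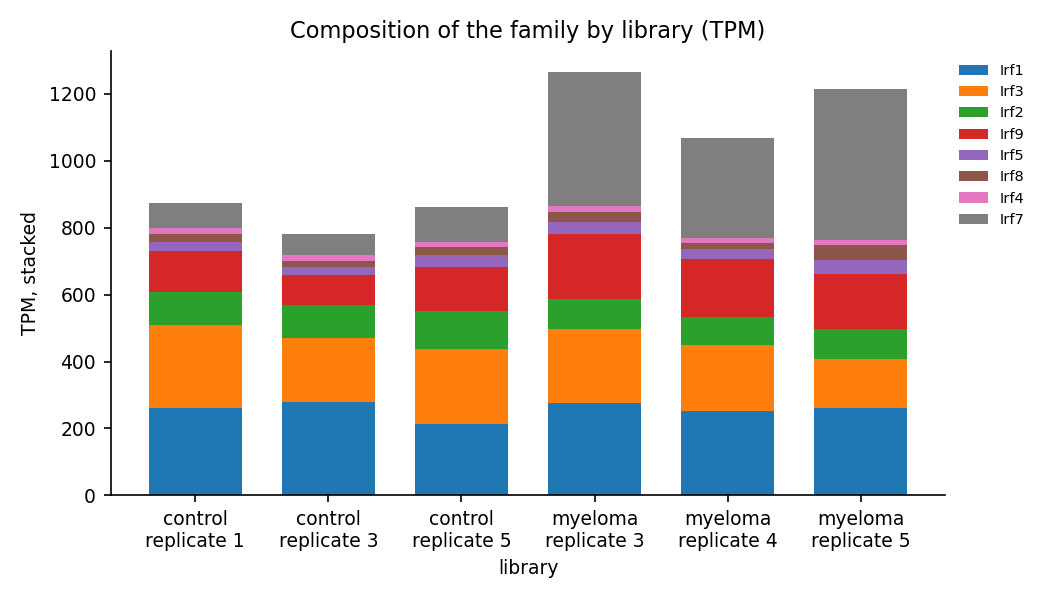
TPM of the 8 members stacked for each library. The total was 1068 to 1266 TPM in the myeloma libraries and 779.8 to 873.0 TPM in the controls, and without the Irf7 segment it was 764.1 to 863.8 and 718.4 to 798.5 TPM.

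On the TPM scale the log2 ratio of group means had a median of -0.225 over all genes tested, so TPM differences are read against that shift. Irf7 and Irf9 were above all control values in TPM too, as were 6.25% of all genes tested. Irf1, at 277.1, 250.9 and 261.3 TPM in the myeloma libraries and 261.8, 278.7 and 212.4 TPM in the controls, overlapped on this scale, and its log2 ratio less the median shift was 0.29. Irf2, at 90.43, 82.38 and 88.6 TPM against 100.3, 100.4 and 114.0 TPM, was below without overlap, as were 30.8% of all genes tested. Less the median shift, its log2 ratio was -0.04.

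Ratios of functionally opposed or paired members within a library were formed in TPM. Irf7 to Irf3 was 1.83, 1.5 and 3.05 in the myeloma libraries and 0.302, 0.322 and 0.468 in the controls. Irf7 exceeded Irf3 in each myeloma library and was below it in each control library. The mean log2 ratio differed by 2.51, and a two-sided exact permutation test gave p = 0.1, the smallest that 3 against 3 libraries can give. Irf1 to Irf2 was 3.06, 3.05 and 2.95 against 2.61, 2.77 and 1.86, a log2 difference of 0.34 with no overlap (exact p = 0.1), which was 0.17 without control replicate 5. Irf4 to Irf8 was 0.517, 0.71 and 0.388 against 0.776, 1.07 and 0.592, a log2 difference of -0.59 with overlap (exact p = 0.2), which was -0.38 without myeloma replicate 5 or control replicate 3. Over these 3 ratios no p was under 0.05, which the design could not reach.

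Among upstream activators of IRFs, 7 of 21 genes tested rose and 1 fell, with a median log2 fold change of 0.21. Counts in this and the following lists stand against 6.33% higher and 4.69% lower over all genes tested, and medians against 0.0185. These are sensors, adaptors and kinases that lead to IRF3, IRF5 or IRF7. Those with the smallest p were the RNA helicases Dhx58 (log2 fold change 2.08) and Ifih1 (1.74), the nucleic acid sensor Zbp1 (1.92) and the RNA-sensing receptor Tlr7 (1.18). Tlr7 stood at 70.4, 51.7 and 75.4 CPM in the myeloma libraries and 26.8, 28.6 and 31.7 CPM in the controls. Named after their values were seen, Ddx58 (1.02), Tank (0.51) and the adaptor Myd88 (0.46) also rose, and the ubiquitin ligase Traf6 (-0.38) fell. The kinase Tbk1, which phosphorylates IRF3 and IRF7, had a log2 fold change of 0.21 and the adaptor Mavs one of 0.02, and neither passed edgeR's quasi-likelihood test (adjusted p = 0.124 and 0.912). The Traf6 and Tank calls were lost when control replicate 3 or 5 or myeloma replicate 3 or 4 was left out, and the Myd88 call was lost in each fit that left out 1 library except the one without myeloma replicate 4.

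Among the DNA-binding and signalling partners of IRFs, 3 of 17 genes tested rose and 5 fell (all genes tested: 6.33% and 4.69%). Their median log2 fold change was -0.12 (all genes tested: 0.0185). Stat2, a partner of IRF9, stood at 263, 204 and 263 CPM in the myeloma libraries and 87.5, 74.8 and 105 CPM in the controls (log2 fold change 1.45, edgeR adjusted p = 0.000575). The groups did not overlap. Batf, the partner of IRF4 and IRF8 at composite elements, rose by 0.83, while Jun, a dimer partner of BATF, fell by 2.01. Jun stood at 53.2, 45.4 and 83.1 CPM in the myeloma libraries and 141, 398 and 194 CPM in the controls. Also lower, and named after their values were seen, were Junb (-1.08), Ikzf1 (-0.48), Ets1 (-0.44) and the coactivator Crebbp (-0.43). The count of lower partners was not stable, and neither was that of all genes, of which 621 were lower with no library left out. Leaving out control replicate 5 gave 2 partners (265 of all genes). Leaving out control replicate 3 or myeloma replicate 3 gave 1 (123 and 207 of all genes). Leaving out myeloma replicate 4 gave 0 (177 of all genes). The Jun call was lost without myeloma replicate 3 or 4.

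Among genes that restrain IRF activity or the signals to it, 4 of 13 tested rose and none fell (all genes tested: 6.33% and 4.69%). Their median log2 fold change was 0.21 (all genes tested: 0.0185). The 4 were Usp18, which blocks the type I interferon receptor (2.33), Socs1 and Socs3, which inhibit Janus kinases (1.58 and 0.38), and the ubiquitin ligase Trim21 (0.84). Without myeloma replicate 3 or control replicate 3 the count of higher genes was 2. Those fits called 452 and 331 of all genes higher, against 838 with no library left out. The Socs1 call was lost without myeloma replicate 3 or 4 or control replicate 3, and the Socs3 call without myeloma replicate 3 or control replicate 1 or 3. Irf2bp2, a corepressor of IRF2, stood at 193, 167 and 206 CPM in the myeloma libraries and 214, 310 and 243 CPM in the controls. Its log2 fold change was -0.44 (adjusted p = 0.0775 in edgeR's quasi-likelihood test). Irf2bp1 (0.32) and Irf2bpl (0.19), of the same list, went the other way and were not called either (edgeR adjusted p = 0.146 and 0.546).

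The known targets of the IRF9 complex and of IRF7 rose in 30 of 30 cases, with a median log2 fold change of 2.35 against 0.0185 over all genes tested. The list was chosen with these data known and is no independent evidence of its direction, and 6 of its genes are also in another list given here. With the smallest p were the ubiquitin-like modifier Isg15 (3.54), the membrane tether of virions Bst2 (2.38), the exonuclease Isg20 (2.02) and the antiviral GTPase Mx1 (3.78). Isg15 stood at 156, 116 and 150 CPM in the myeloma libraries and 9.91, 11.3 and 14.8 CPM in the controls. All 30 were called in every fit that left out 1 library.

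Among targets of IRF1, 17 of 20 tested rose and none fell (all genes tested: 6.33% and 4.69%). Their median log2 fold change was 0.90 (all genes tested: 0.0185). The chemokine Cxcl10 (3.75), the immunoproteasome subunits Psmb9 (1.05) and Psmb8 (0.81) and the peptide transporter Tap1 (0.83) had the smallest p. Psmb9 stood at 268, 259 and 265 CPM in the myeloma libraries and 144, 129 and 109 CPM in the controls. The 3 that did not pass were Il15ra (0.64), Il15 (1.48) and Ciita (-2.23), named after their values were seen. Without myeloma replicate 3 the count was 10, in a fit that called 452 of all genes higher, against 838 with no library left out.

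Among effector genes that IRF4 sustains in regulatory T cells, 5 of 18 tested rose and none fell (all genes tested: 6.33% and 4.69%). Their median log2 fold change was 0.78 (all genes tested: 0.0185). The protease Gzmb (2.89), the lectin-like receptor Klrg1 (1.25), the transcription factor Maf (0.89) and Batf (0.83) had the smallest p, and the costimulatory receptor Tnfrsf9 (1.20) was the fifth. Prdm1, a classical IRF4 target, stood at 124, 109 and 112 CPM in the myeloma libraries and 90.8, 71.6 and 44.5 CPM in the controls, and did not pass edgeR's quasi-likelihood test (log2 fold change 0.74, adjusted p = 0.0568). The count was 10 without control replicate 1 and 3 without control replicate 3, where the Maf call was lost. Those fits called 644 and 331 of all genes higher, against 838 with no library left out.

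Interferon genes, the type I members of which IRF3 and IRF7 activate, were at or near 0 in these libraries apart from Ifng. Of 21 interferon genes in the tables, 13 had no counts in any library, Ifnb1 among them, and 1, Ifng, had enough counts to be tested. Ifng stood at 5.50, 7.44 and 8.84 CPM in the myeloma libraries and 2.81, 6.79 and 2.90 CPM in the controls, with overlap (log2 fold change 0.80, adjusted p = 0.237 in edgeR's quasi-likelihood test). A count of 0 allows a level of up to 0.217 to 0.297 CPM, depending on the library (3 counts of its total, for counting error only), so these genes were not detectable at this depth rather than shown to be absent.

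**Figure D4:**
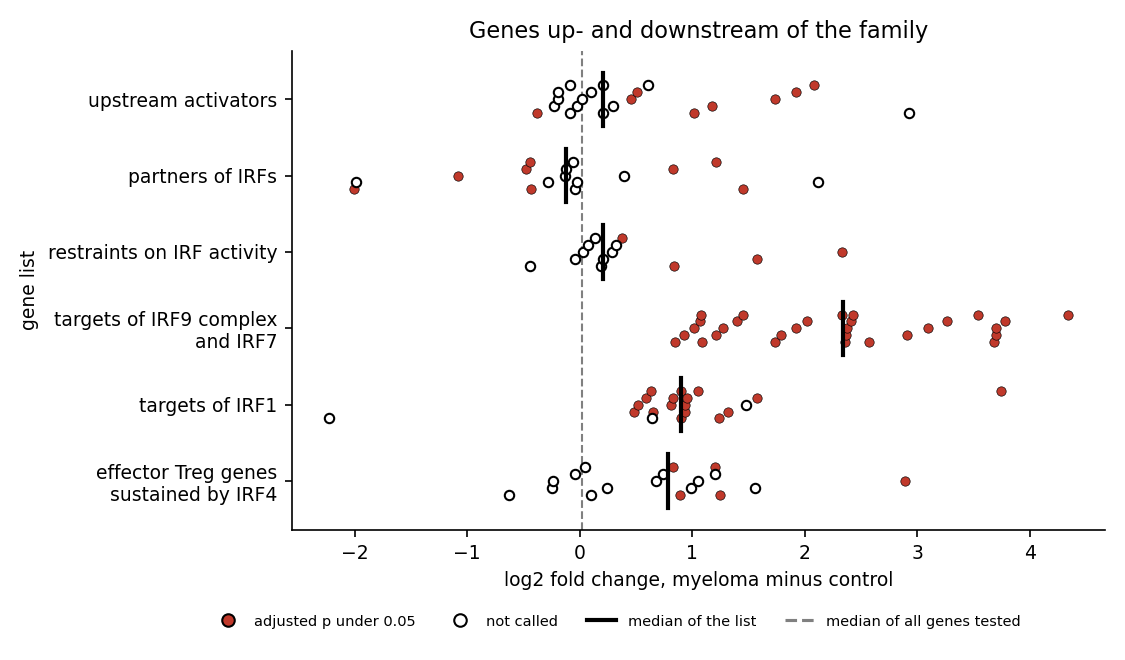
Log2 fold change, myeloma minus control, of each tested gene in 6 lists of genes around the family (filled, edgeR adjusted p under 0.05). Black bars are list medians and the dashed line is the median of all genes tested, 0.0185. All 30 targets of the IRF9 complex and IRF7 were higher, with a median of 2.35, and partners of IRFs had a median of -0.12.

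Several members are also expressed by other marrow cells, so marker levels are given beside them. Counts of markers called stand against 6.33% higher and 4.69% lower over all genes tested. The 6 regulatory T cell markers summed to 4150 to 4390 CPM in the myeloma libraries and 3900 to 5240 CPM in the controls, and none of the 6 was called. The 10 macrophage and monocyte markers summed to 67.5, 161 and 509 CPM in the myeloma libraries against 119, 47.0 and 82.6 CPM, and 3 were called higher (C1qa, Mertk and Fcgr1). Myeloma replicate 5, highest of its group for Irf8, Irf4, Irf5 and Irf7, was also highest for this list. It also had the highest sums of its group for plasma cell, B cell and conventional dendritic cell markers. Myeloma replicate 4 had more macrophage and monocyte markers than replicate 3 but less Irf8, Irf4, Irf5 and Irf7. Control replicate 1 had the most of these markers among the controls and was highest for none of the same members.

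The 8 plasma cell markers summed to 1300, 1740 and 2540 CPM against 1200, 1230 and 1120 CPM, of which Ighm alone made up 996 to 1250 CPM in each library. Of the 7 tested, 3 rose (Jchain, Igkc and Sdc1), and Tnfrsf17 was at 0 in each control library. The 9 B cell markers summed to 28.4, 42.1 and 71.1 CPM in the myeloma libraries and 46.0, 233 and 296 CPM in the controls, and 4 of 9 were called lower. B cells also express Irf8 and Irf5. Within each group replicate 5 had the most B cell markers and also the most Irf8 and Irf5. Myeloma replicate 4 had more B cell markers than replicate 3 but less Irf8 and Irf5. In the controls the order of Irf5 over the libraries was that of the markers. Irf8 was lower in control replicate 3 than in control replicate 1, which had fewer markers. Control replicates 3 and 5 had more B cell marker counts than any myeloma library. The 6 plasmacytoid dendritic cell markers summed to 50.8 to 70.5 CPM in the myeloma libraries and 55.2 to 71.1 CPM in the controls, of which Pacsin1 made up most, none of the 3 tested was called, and Cox6a2 and Cd209d were at 0 in at least 1 library. The defining marker Siglech stood at 0.846, 0 and 4.91 CPM in the myeloma libraries and 2.42, 2.32 and 5.52 CPM in the controls. It was not called (log2 fold change -0.83, adjusted p = 0.649 in edgeR's quasi-likelihood test). Within each group the order of Siglech over the libraries was that of Irf7, which these cells carry at high levels. The orders of Pacsin1 and Tcf4, the other tested markers of this list, differed from that of Irf7 in both groups.

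The 6 conventional dendritic cell markers summed to 12.9, 13.3 and 30.9 CPM in the myeloma libraries and 8.97, 7.56 and 7.48 CPM in the controls, with none of 2 tested called and Xcr1, Clec9a, Cd209a and Flt3 each at 0 in at least 1 library. The 7 neutrophil markers summed to 133, 457 and 406 CPM against 178, 62.4 and 157 CPM, with none called. NK cell markers summed to 1.86 to 3.48 CPM and CD8 T cell markers to 11.0 to 22.4 CPM, with none called. The part of RNA from these other cells in the differences of Irf4, Irf5, Irf7 and Irf8 was not tested.

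**Figure D5:**
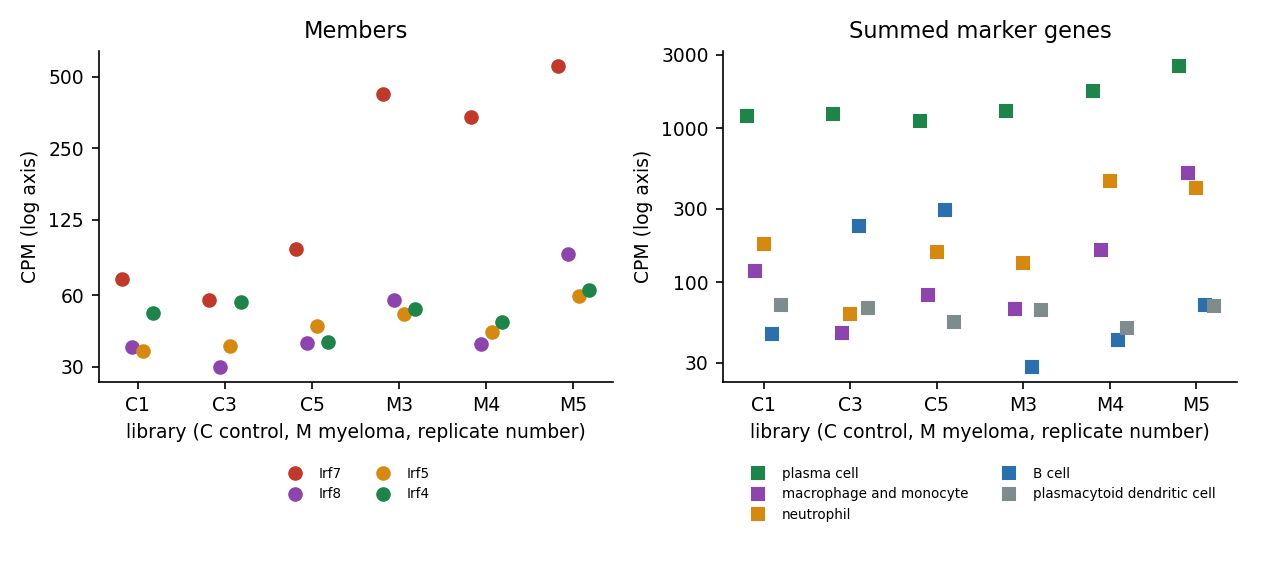
CPM (log axes) in each library of 4 members (left) and summed CPM of 5 lists of markers of other marrow cells (right). Myeloma replicate 5 (M5) was highest for Irf8 at 89.84 CPM and for macrophage markers at 509 CPM. M4 had more macrophage markers than M3 and less Irf8. Irf7 was 339.7 to 557.0 CPM in the myeloma libraries, and macrophage markers were 67.5 to 509 CPM in them.

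Genes whose pattern over the 6 libraries was closest to a member were found as those with the smallest root mean square difference of centred log2 CPM. Over these 6 values the closest to Irf7 were Oas3 (0.0413), Cmpk2 (0.154) and Rsad2 (0.16), each a gene of the target list above. The group difference enters this distance, and their log2 fold changes (2.57, 2.41 and 2.43) were near that of Irf7. That list was chosen with these data known, so the closeness is no evidence of a target relation. The closest to Irf9 were Loxl3 (0.0633), Agbl3 (0.0825) and Galc (0.0922), and the closest to Irf1 were Ndufs8 (0.0616), Atp6v1g1 (0.0664) and Praf2 (0.0672). The closest to Irf8 were Scarf1 (0.12), Skap2 (0.128) and Lacc1 (0.147), and the closest to Irf5 were Cfap298 (0.0383), Dapk3 (0.0505) and Zdhhc24 (0.0597). For Irf2 they were Acd, Ndst2 and Zswim8, for Irf3 Fam114a2, Med8 and Cyth4, and for Irf4 Pla2g12a, Zfp523 and H3f3b. Within the family Irf2 and Irf3 were nearest to each other, at 0.104, and no member was nearer to Irf7 than Irf9 at 0.908. With 6 libraries many genes lie close to any pattern, so these are descriptions.

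The genes around the members were examined for changes shared along the chromosome. Of 17 tested genes within 20 kb of a member, 2 rose and none fell, with a median log2 fold change of 0.21. This share is near the 11.0% called over all genes tested. Psme2, a subunit of the proteasome activator, lies 12458 bases from Irf9 and stood at 244.5 ± 14.8 CPM against 129.2 ± 10.2 CPM (SD, n = 3 each; log2 fold change 0.92, edgeR adjusted p = 0.000554). Rras, 15113 bases from Irf3, had a log2 fold change of 0.78 (edgeR adjusted p = 0.0433), and its call was lost in each fit that left out 1 library. The library kit does not mark strand, so reads where a member overlaps a gene on the opposite strand cannot be told apart. Phrf1, which overlaps Irf7 on the opposite strand, stood at 114.5 ± 9.93 CPM against 139.8 ± 11.1 CPM (log2 fold change -0.29, edgeR adjusted p = 0.0881). Gm17334 overlaps Irf1, Bcl2l12 overlaps Irf3 and Tnpo3 overlaps Irf5 on the opposite strand, Rnf31 overlaps Irf9 and Gm20388 overlaps Irf8 on the same strand, and none of these 5 was called.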

How the data were processed

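Per the labels' protocols, libraries of sorted cells used the NEBNext Ultra RNA kit. The submitters' processing notes name STAR, RSEM, Picard, DESeq2 and the build mm10, which denotes GRCm38. No versions are named there. The deposited tables hold RSEM expected counts per gene, not normalized, per the file headers. TPM and FPKM in the deposited tables were scaled by the authors' RSEM run for effective length and library total, per the file headers, and FPKM entered no result. Transcript and effective lengths are other values of the same deposited tables.

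Expected counts (10240620 to 13314631 per library) were rounded to whole numbers, filtered with edgeR's filterByExpr (minimum count 10, minimum total 15), scaled with TMM and tested by quasi-likelihood (glmQLFit, then glmQLFTest; edgeR 4.0.16 under R 4.3.3), 3 myeloma against 3 control libraries, over 13235 genes. Names matched for 47224 of 47643 gene identifiers. Gene positions are from GENCODE M21 on GRCm38, and 1-based. The biological coefficient of variation was 0.202. RSEM divides reads shared between similar genes by a model, so counts of paralogs among the targets, such as the Oas and Ifit families, are uncertain. The test was tested on simulated data with known changes.

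The members, gene lists and marker lists were chosen with earlier results of these data known. Named are all 8 members, the 4 genes with the smallest p in each list and further list genes chosen after their values were seen. Tbk1, Mavs, Tnfrsf9, Prdm1, Irf2bp1, Irf2bp2 and Irf2bpl are among these further genes. Also named are tested genes within 20 kb of a member and the 3 genes closest in pattern to each member (log2 CPM, prior count 2). Each fit was repeated in 17 other settings. These changed the scaling (RLE factors, upper-quartile factors or none), the filter (none, or 1 CPM in 3 samples), the tool (DESeq2 1.42.0, limma-voom 3.58.1 or robust dispersion) or the offset (effective length). Others took out immunoglobulin, globin and mitochondrially encoded transcripts, blocked on replicate number, or left out 1 library at a time. Two-sided exact permutation tests were used for the ratios. Some values that the naming rule covers are not reported here.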

Additional observations from a re-analysis of the deposited data

How the results depend on the processing

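Irf7 and Irf9 were called in each of the 17 other settings and Irf2, Irf3 and Irf4 in none. Without a filter on low counts 5 members were higher in edgeR's quasi-likelihood test, with Irf5 (adjusted p = 0.0436) and Irf8 added. In that fit the SE was 0.11 for Irf2, Irf7 and Jun alike, against 0.08, 0.22 and 0.37 with the filter. The SE thus hardly followed the spread of each gene, and calls made without the filter carry that limit. DESeq2 called 4 members. The groups share replicate numbers 3 and 5, but the labels do not say that a number marks a shared source, so the numbers were not taken as pairs. Same-numbered libraries correlated at 0.03 and 0.097 in their deviations from the group means. Crossed libraries correlated at -0.08 (myeloma 3 with control 5) and -0.008 (myeloma 5 with control 3). With the replicate number as a block, 362 genes were higher and 142 lower (838 and 621 without it). Only numbers 3 and 5 occur in both groups, so myeloma replicate 4 and control replicate 1 added nothing to this comparison. In this fit 3 members were higher, with Irf8 called (edgeR adjusted p = 0.0155) and Irf1 not (0.0989), and the Irf2 log2 fold change was 0.05. The Irf8 log2 fold change was 1.09, against 1.08 when myeloma replicate 4 alone was left out. The block left 0 upstream activators lower, 2 partners lower, 2 restraints higher and 9 IRF4-sustained genes higher. Without the filter 1337 genes were higher and 1102 lower, with 5 partners and 11 IRF4-sustained genes higher, and 1 restraint, 1 IRF1 target and 1 IRF4-sustained gene lower. Library sizes alone gave 1004 genes lower, the effective-length offset 405. Library sizes alone and DESeq2 each gave 1 restraint lower. The Irf3 log2 fold change turned to -0.0037 with RLE factors, -0.02 with upper-quartile factors, -0.07 with library sizes alone, -0.01 without the filter, -0.0022 with at least 1 CPM in 3 samples, -0.0094 with DESeq2 and -0.0041 without immunoglobulin, haemoglobin and mitochondrial genes. Each of these estimates was smaller in size than its SE (0.08 to 0.11), so its sign was not resolved. Over the fits that left out 1 library, genes higher ran from 331 to 836 and lower from 123 to 546, members higher from 2 to 3, upstream activators lower from 0 to 1, partners lower from 0 to 6, restraints higher from 2 to 6 and lower from 0 to 1, IRF1 targets higher from 10 to 18, and IRF4-sustained genes higher from 3 to 10 and lower from 0 to 1. Irf2 ran from -0.05 to 0.05 and Irf3 from -0.07 to 0.05. Counting depth did not limit the members, each with at least 350 counts per library, but it limits the interferon genes.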
